A study of Drosophila melanogaster with 4 samples.

Results

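Among the small RNAs of fly heads, 334 sequences of 16 to 19 nt were shorter than a mature miRNA and were each read at least 100 times over 4 libraries. They were chosen by those 2 measures alone, length and summed reads, out of 5550 distinct sequences, of which 2418 were 16 to 19 nt long. The set holds 63 sequences of 16 nt, 67 of 17 nt, 84 of 18 nt and 120 of 19 nt. The 3 sequences just inside the minimum had 100 summed reads each, and the 3 just outside had 99, 99 and 97. A further 741 sequences of 20 nt or more passed the same minimum, and they serve as the background against which the short ones are read.

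The heads came from wild-type male Drosophila melanogaster of genotype 5905, raised at 25 °C and aged for 3 or 30 days. Total RNA of each age was sequenced once after oxidation and β-elimination and once without it, so there were 4 groups of 1 library each and no replicates. Group membership follows titles and descriptions: the age tag of 2 libraries, the oxidized one of 3 days and the unoxidized one of 30 days, gives the other age. If the tags were right, both oxidized libraries would be 30 days old and both unoxidized ones 3 days old, and age and oxidation could not be told apart in these data.

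A miRNA is cut from a hairpin as a duplex and 1 strand is loaded into an Argonaute protein. The 5′ end is held there, while enzymes can reach the 3′ end. Bases 2 to 8, the seed, carry most of the pairing with targets. In flies the exonuclease Nibbler shortens the 3′ end of many loaded miRNAs, miR-34 being the classic case, while the methyltransferase Hen1 adds a 2′-O-methyl group to the 3′ end of small RNAs held by AGO2. Periodate oxidation and β-elimination act on 3′ ends whose last ribose has both hydroxyls free and remove that last base, leaving an end to which an adapter is not readily joined; a methylated end resists.

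The members are best seen beside the longer reads that contain them. For each one the parent is the most abundant sequence of 20 nt or more that holds it whole. A prefix of the parent has lost bases at the 3′ end, a suffix has lost bases at the 5′ end, and an inner part has lost both. The sequences below are the parents and short forms on which the results turn, written 5′ to 3′ with T for U. In a parent, a suffix and an inner part, capitals mark what is present of the parent's seed; in a prefix the capital marks the last base, where the molecule ends.
bantam-3p, 23-nt parent: tGAGATCAttttgaaagctgatt
bantam-3p, 17-nt prefix: tgagatcattttgaaaG
bantam-3p, 18-nt prefix: tgagatcattttgaaagC
bantam-3p, 19-nt prefix: tgagatcattttgaaagcT
miR-263a-5p, 24-nt parent: aATGGCACtggaagaattcacggg
miR-263a-5p, 18-nt prefix: aatggcactggaagaatT
miR-263a-5p, 19-nt prefix: aatggcactggaagaattC
miR-306-5p, 21-nt parent: tCAGGTACttagtgactctca
miR-306-5p, 17-nt prefix: tcaggtacttagtgacT
miR-306-5p, 19-nt prefix: tcaggtacttagtgactcT
miR-995-3p, 21-nt parent: tAGCACCAcatgattcggctt
miR-995-3p, 19-nt prefix: tagcaccacatgattcggC
miR-34-5p, 21-nt parent: tGGCAGTGtggttagctggtt
miR-34-5p, 18-nt prefix: tggcagtgtggttagctG
miR-34-5p, suffix from base 6 to 21: GTGtggttagctggtt
miR-34-5p, inner part from base 3 to 18: GCAGTGtggttagctg
The bantam, miR-263a, miR-306 and miR-995 sets are shown because neighbouring lengths of 1 miRNA behaved differently after oxidation, and the miR-34 set because it holds the most abundant member and all 3 ways of being shortened. Other miRNAs had steps in the opposite direction, with the longer prefix higher, and 1 of them is given below.

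The tables carry no names. Names were recalled from the published miRNA catalogue and matched to the parents, and 80 of the 91 miRNA arms with a member could be named; they held 316 members and 99% of member reads. For 70 of these 80 arms (87.5%) the most abundant sequence was within 1 nt of an arm length in the Ensembl BDGP6.54 annotation, and for 47 it was equal, which checks the length and not the sequence. By gene name in that annotation, which is not the build of the files (dm3), the hairpin of miR-34 lies on chromosome arm 3R at 10100936 to 10101034 (+), in an exon of lncRNA:CR43459. That of bantam lies on 3L at 642208 to 642288 (+), in an exon of lncRNA:CR43334, and that of miR-263a (mir-bft) on 2L at 11953410 to 11953503 (−), in an exon of lncRNA:CR43314. The hairpin of miR-306 lies on 2L at 16698404 to 16698488 (+), in an intron of grp, and that of miR-995 on 3R at 20735923 to 20736012 (+), in an intron of Cdk2.

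Marker miRNAs of tissues were looked up among the arms that had members. Of 6 nervous-system arms (miR-124-3p among them), 5 were parents of members, and the reads of these arms summed to 12271, 3583, 12510 and 2291 RPM (reads scaled to a library total of 1000000) in the unoxidized and oxidized library of 3 days and of 30 days. The muscle marker miR-1-3p had 4 members, none of them a prefix, and 48.2, 26.8, 39.4 and 42.9 RPM over the listed reads of its arm. Few longer sequences of that arm were listed, and its parent was a 20-nt sequence that begins with G. These values therefore do not measure the full arm or the muscle content. None of 13 arms typical of early embryo, ovary or testis was a parent. An arm without a member was not measured here, so this does not show that these miRNAs were absent. Libraries held 16112748, 2091252, 17345816 and 12105527 reads in the same order, so a count of 0 allows up to 1.43 RPM in the 3-day oxidized library and 0.173 to 0.248 RPM in the others (3 counts). Every member was present in both unoxidized libraries, while 33 were at 0 in the oxidized library of 3 days and 5 in that of 30 days. In bulk RNA, fewer cells of a type and less of a miRNA per cell cannot be told apart.

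Shortening at the 3′ end was the common form. Of the 334 members, 205 (61.4%) were prefixes of their parent and held 89.4% of member reads, 87 were suffixes with 6.82%, and 42 were inner parts with 3.82%. None lay outside a longer read: each member was held by several longer sequences, with a median of 11 and a highest number of 53. The class can depend on which of them is taken as the parent, since 265 members were a prefix, 183 a suffix and 299 an inner part of at least 1 longer sequence. With the longest holder as parent, 46.7% of members were inner parts and 5.99% suffixes. With the most abundant holder, inner parts had 28391 reads. Of these, 11114, 3532 and 2704 were of miR-210-3p, from base 2 to 20, 2 to 18 and 2 to 17. Whether such forms lost their first base or were made without it was not tested. For 6 members, with 1.43% of member reads, a longer holder disagreed in sequence with the parent outside the shared bases, so their source is uncertain.

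Most short reads therefore kept their seed. The parent's bases 2 to 8 were whole in 219 members (65.6%) with 92.8% of member reads: the 205 prefixes and 14 members that began at base 2. Another 21 members began at base 3, and 94 began at base 4 or later. The last base of the prefixes was T in 67, G in 56, C in 50 and A in 32, or 32.7%, 27.3%, 24.4% and 15.6%. At positions 16 to 19 of their 92 parents the shares of these bases were 28.8%, 29.1%, 20.4% and 21.7%.

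A few miRNAs supplied much of the short pool. The 10 members with the most reads held 46.4% of member reads, and the 18-nt prefix of miR-34-5p alone held 8.35%. By mean level the next were the 18-nt and 19-nt prefixes of miR-184-3p, one of the most abundant head miRNAs, at means of 991 and 871 RPM over the 4 libraries. They were followed by the 19-nt prefixes of miR-14-3p at 607 RPM, a miRNA known for its part in survival and fat metabolism, and of miR-995-3p at 571 RPM. The 16-nt and 17-nt prefixes of miR-184-3p had means of 513 and 401 RPM. The other 13 of the 20 highest were prefixes of 18 or 19 nt but for 1, the inner part from base 2 to 20 of miR-210-3p, at 144, 249, 342 and 193 RPM in the unoxidized and oxidized libraries of 3 and then 30 days. Among the 19-nt prefixes, miR-8-3p had 215, 245, 518 and 369 RPM in that order, and let-7-5p 181, 145, 322 and 386 RPM. Those of miR-317-3p, miR-305-5p, miR-277-3p and miR-932-5p had their highest level in the unoxidized 30-day library, at 788, 549, 420 and 484 RPM, and were lower there after oxidation, with ratios of −3.16, −3.04, −1.62 and −2.88. The 19-nt prefix of miR-998-5p went the other way, with ratios of 4.34 at 3 days and 3.46 at 30 days. Members are a small part of their family as a rule, but 5 of them had more summed reads than their own parent; the 19-nt prefix of miR-276-5p, with 16523 reads against 12913, was one.

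Members took 0.751% of the reads of the unoxidized 3-day library (95% interval 0.746 to 0.755), 1.34% after oxidation at 3 days (1.32 to 1.35), 2.32% without oxidation at 30 days (2.31 to 2.33) and 1.58% after oxidation at 30 days (1.57 to 1.59). The intervals are exact Clopper-Pearson intervals and cover counting error only. The share of the short pool was 3.09-fold higher at 30 than at 3 days without oxidation and 1.18-fold higher with it. After oxidation it was 1.78-fold higher at 3 days and 1.47-fold lower at 30 days. With 1 library a group these differences have no replicate check. A share also depends on what else fills the library. With oxidation the miR-263a-5p arm went from 8551 to 316403 RPM at 3 days and from 15345 to 504995 RPM at 30 days. Among 55 arms with at least 1000 reads in each library, the short share within the arm was higher after oxidation at 30 days in 40 and lower in 15.

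The miR-184-3p members had the most reads of any arm. Without them, a comparison added after the values were seen, the folds were 2.02 after oxidation at 3 days, 1.38 lower at 30 days, 3.03 with age without oxidation and 1.09 with age after oxidation.

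The lengths did not move alike. After oxidation at 3 days the share of 16-nt members was 3.21-fold higher and that of 17-nt members 3.71-fold higher, against 1.39-fold and 1.51-fold for 18 and 19 nt. At 30 days the 16-nt, 18-nt and 19-nt shares were 1.83-fold, 1.35-fold and 1.6-fold lower after oxidation, and the 17-nt share differed by 1.05-fold. With age and no oxidation all 4 lengths were higher, by 2.81-fold to 3.67-fold. Just above the members, reads of exactly 20 nt took 8.76% and 19.8% of the unoxidized libraries at 3 and 30 days and 3.67% and 3.83% of the oxidized ones, so the lower share after oxidation at 20 nt was seen at both ages.

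**Figure D1:**
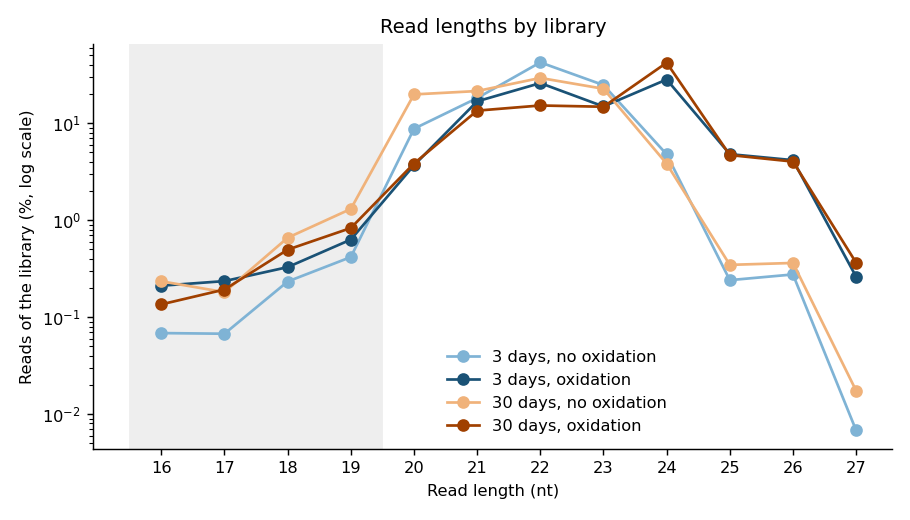
Percent of each library's reads (y axis, log scale) by read length in nt (x axis), with 1 line per library and the member lengths shaded. At 16 and 17 nt the unoxidized 3-day library is the lowest of the 4, and from 24 to 27 nt both oxidized libraries lie above both unoxidized ones.

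Ratios between libraries are given on the log2 scale, so 1 stands for a 2-fold difference. With 1 library per group there is no test; a member is counted as higher or lower when it passes 2-fold, and the same count over other sequences is the background. Where a member was at 0 in a library, 3 counts were put in its place, and it was left out where that limit fixed no direction. It was also left out with 3 counts or fewer in both libraries.

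After oxidation at 3 days, 150 of 321 members passed 2-fold upwards and 74 downwards, and their median was 0.67. Over all 1056 sequences with 100 summed reads, 34.3% were higher and 42.0% lower, while the longer ones had 28.8% higher, 50.2% lower and a median of −1.01. The 13 members left out had at most 22 reads without and 1 read with oxidation, and with all of them placed lowest the median would be 0.55. The members' count depends on the scaling: with the trimmed mean of M values (TMM) in place of total reads it was 117 higher and 131 lower. That scaling moved the median of all sequences by −1.13. The members lay 1.04 above that median, against 1.06 with total reads. A scaling shifts all ratios alike, so this distance can change only through the sequences left out and is no check of the count. It depends on the choice of members too. A sequence could pass the minimum of 100 reads through an oxidized library alone, and among members chosen on the unoxidized libraries only, 79 were higher and 72 lower.

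From 17 to 24 nt the ratio was mostly lower in longer sequences. At 3 days the medians were 1.99 at 16 nt, 2.01 at 17 nt, 1.23 at 18 nt and 0.0046 at 19 nt, then −0.61 at 20 nt, −0.79 at 21 nt, −1.01 at 22 nt and −1.54 at 24 nt. At 30 days they were 0.59, 0.61, 0.29 and −1.28 at 16 to 19 nt, and −0.60, −1.27, −1.43 and −3.17 at 20, 21, 22 and 24 nt. The 19-nt median at 30 days was thus below that of 20 nt. The few sequences of 25 nt (15) and 26 nt (5 and 6) did not continue the decline, with −1.35 and −0.99 at 3 days and −2.18 and 0.89 at 30 days. Over all members at 30 days, 120 of 334 passed 2-fold upwards and 125 downwards around a median of 0.11, beside 29.6% higher and 50.2% lower of all sequences and 26.7% and 56.0% of the longer ones. Size factors from the median of ratios gave 160 higher and 91 lower, with a shift of 0.78 in the median of all sequences. Members chosen on the unoxidized libraries gave 45 higher and 119 lower, and they were not split by length.

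**Figure D2:**
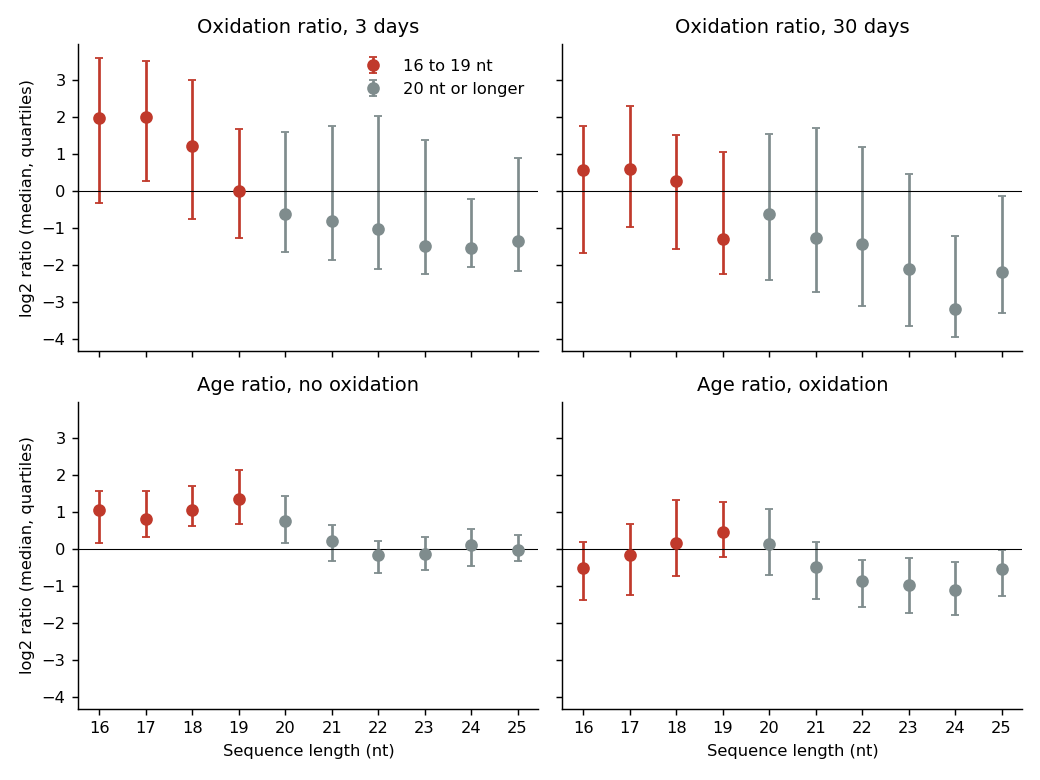
Median log2 ratio with quartiles (y axis) by sequence length in nt (x axis) for the 4 comparisons, members in red and sequences of 20 nt or more in grey. The oxidation ratios decline from 17 nt to 24 nt at both ages, with the 19-nt median of 30 days below its neighbour at 20 nt, and the age ratios without oxidation are highest at 19 nt.

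The classes differed. Prefixes had a median of 1.53 at 3 days (112 higher and 30 lower of 204) and 0.38 at 30 days (80 and 63 of 205). Within the prefixes the 3-day medians were 3.39, 3.18, 1.67 and 0.0046 from 16 to 19 nt, and none of the 33 prefixes of 16 nt was 2-fold lower. At 30 days they were 1.5, 1.67, 0.42 and −1.35, with 3 of the 33 prefixes of 16 nt and 46 of the 83 of 19 nt at least 2-fold lower. Suffixes, which keep the parent's own 3′ end, had a median of −0.80 at 3 days (22 higher and 37 lower of 82) and −1.88 at 30 days (22 and 52 of 87). Inner parts had 16 higher and 7 lower of 35 at 3 days and 18 and 10 of 42 at 30 days. A sequence could pass the minimum through an oxidized library where it was high. Members chosen on the unoxidized libraries were not split by class or length. How far these medians follow from the choice of members was therefore not tested.

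Because a member and its parent share a library, the difference between their ratios does not depend on scaling. It was at least 2-fold in favour of the member in 147 of 305 members at 3 days and the other way in 54, with a median of 0.94. For longer sequences held by a still longer one, the shares were 23.9% and 20%, with a median of 0.10. At 30 days 168 of 334 members exceeded the parent by 2-fold and 80 fell short by as much (median 1.01), against 32.0% and 19.8% of the longer sequences and a median of 0.35. With the longest holder as parent the median was 0.18, with 30 higher and 26 lower of the 84 members that then had a value. By class, prefixes had medians of 1.48 at 3 days and 1.44 at 30 days, against −0.085 and −0.63 in suffixes and 0.66 and 1.53 in inner parts. At 3 days 15 suffixes and 10 inner parts were left out; placed all lowest or all highest, they would move the suffix median to −0.44 or 0.33, so its sign is not fixed, and the inner median to 0.03 or 2.11. The prefixes of 16, 17, 18 and 19 nt stood 4.24, 4.35, 1.95 and 0.95 above their parents at 3 days and 3.45, 2.53, 1.63 and 0.93 at 30 days. Over all members chosen on the unoxidized libraries the median differences were 0.74 at 3 days and 0.59 at 30 days. Those members were not split by length or class.

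**Figure D3:**
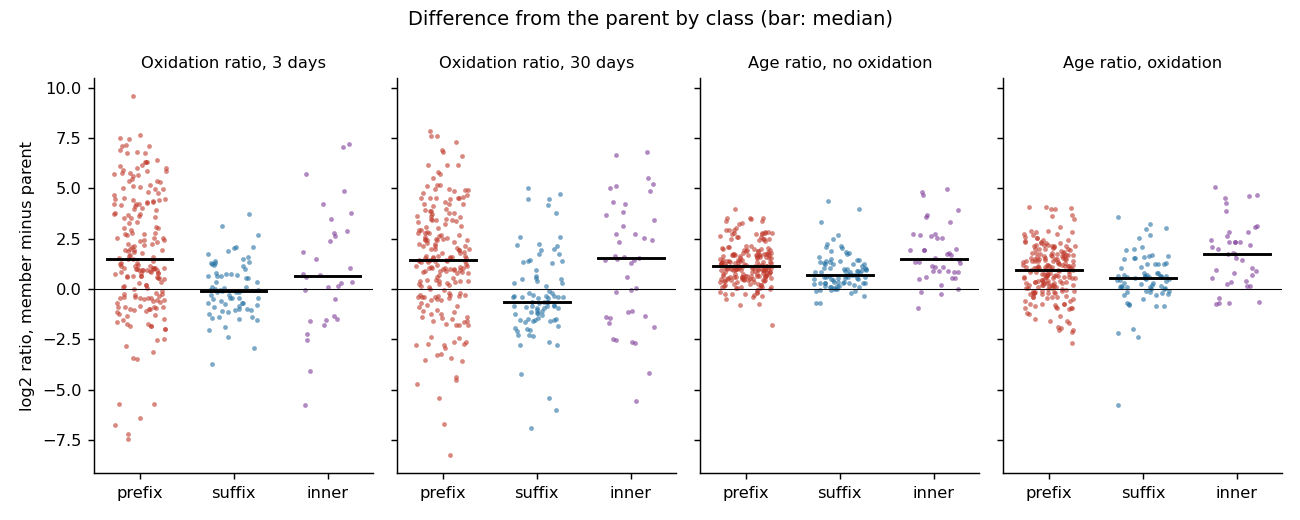
Log2 ratio of each member minus that of its parent (y axis) by class (x axis) for the 4 comparisons, with 1 point per member and a bar at the median. Prefixes spread from about −8 to almost 10 in the oxidation panels, suffixes centre near or below 0 there, and nearly all points lie above −1 in the age panel without oxidation.

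The 2 oxidation comparisons share no library, so the same members can be followed in both, though members were chosen on reads summed over all 4 libraries. Of the 147 members higher than their parent at 3 days, 123 (83.7%) were so at 30 days, which is 81.5% of the 151 higher at 30 days. For longer sequences the shares were 82.1% and 62.0%, so the first of the members' shares is near this background. For prefixes it was 102, or 87.9% of 116 and 84.3% of 121. Across the 305 members with both values the rank correlation (Spearman) was 0.86, and across the 512 longer sequences 0.78. Members of 1 miRNA share a parent, so these points are not independent. A sequence that passed the minimum through its oxidized reads may be high in both comparisons. The overlap was not recounted among members chosen on the unoxidized libraries.

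bantam, an abundant miRNA that promotes growth and blocks cell death, had prefixes 1 base apart with opposite oxidation ratios. Its 17-nt prefix, ending in G, had 13.7 RPM without and 334 RPM with oxidation at 3 days, and 19 and 287 RPM at 30 days. It was high in both oxidized libraries, with log2 ratios of 4.60 (95% interval 4.38 to 4.83) and 3.91 (3.75 to 4.08). The 18-nt prefix, 1 C longer, went the other way, with 515 and 173 RPM at 3 days and 583 and 79.2 RPM at 30 days, or −1.57 (−1.73 to −1.42) and −2.88 (−2.98 to −2.78). The 19-nt prefix had 27.9, 66.9, 64.2 and 132 RPM in the same order and ratios of 1.26 and 1.04. The 23-nt parent had ratios of −2.52 and −3.94. The 18-nt form was the most common of these 3 prefixes before oxidation and the 17-nt form the most common after it, at both ages. Why the neighbouring lengths differed was not tested.

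miR-263a-5p, which protects sensory bristle cells, had its break 1 base further on, between 18 and 19 nt. Its 24-nt parent was the sequence that took the largest part of the oxidized libraries, at 272616 and 416951 RPM against 5252 and 10465 RPM without oxidation. Its 17-nt prefix had 3.17 and 129 RPM at 3 days and 7.38 and 84.8 RPM at 30 days. The 18-nt prefix was alike, with 6.64 and 134 RPM and 19.4 and 118 RPM, or ratios of 4.34 (4.01 to 4.67) and 2.60 (2.43 to 2.78). The 19-nt prefix had 160 and 47.8 RPM and 240 and 31.4 RPM, or −1.75 (−2.05 to −1.46) and −2.94 (−3.09 to −2.78). The longer prefixes of 20 to 22 nt lay between −2.35 and −0.33, and the 23-nt one at 4.51 and 4.69, near the parent's 5.70 and 5.32. The 19-nt prefix minus its parent gave −7.44 at 3 days and −8.25 at 30 days, the lowest differences of any member with 50 reads in the libraries compared.

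miR-306-5p had its break between 17 and 19 nt. Its 17-nt prefix had 5.21 and 162 RPM at 3 days and 7.61 and 95.6 RPM at 30 days, or ratios of 4.96 and 3.65. The 19-nt prefix had 94.8 and 43.5 RPM and 187 and 49.1 RPM, or −1.12 and −1.93, and the 21-nt parent −2.16 and −3.26. The 18-nt prefix did not reach 100 reads. miR-999-3p had a comparable pair of ends: its 16-nt prefix had 6.21 and 252 RPM at 3 days and 5.25 and 106 RPM at 30 days, or 5.35 and 4.33, beside −2.30 and −3.26 for the 22-nt parent at 47204, 9568, 26389 and 2761 RPM.

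miR-995-3p differed in that its whole ladder was higher after oxidation. Its 19-nt prefix had 14.4 and 1282 RPM at 3 days and 36.3 and 950 RPM at 30 days, or 6.48 (6.28 to 6.68) and 4.71 (4.59 to 4.83). The 20-nt prefix followed with 5.29 and 3.61, and the 21-nt parent with 3.53 and 2.19. Each base removed from the 3′ end came with a higher ratio at both ages.

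**Figure D4:**
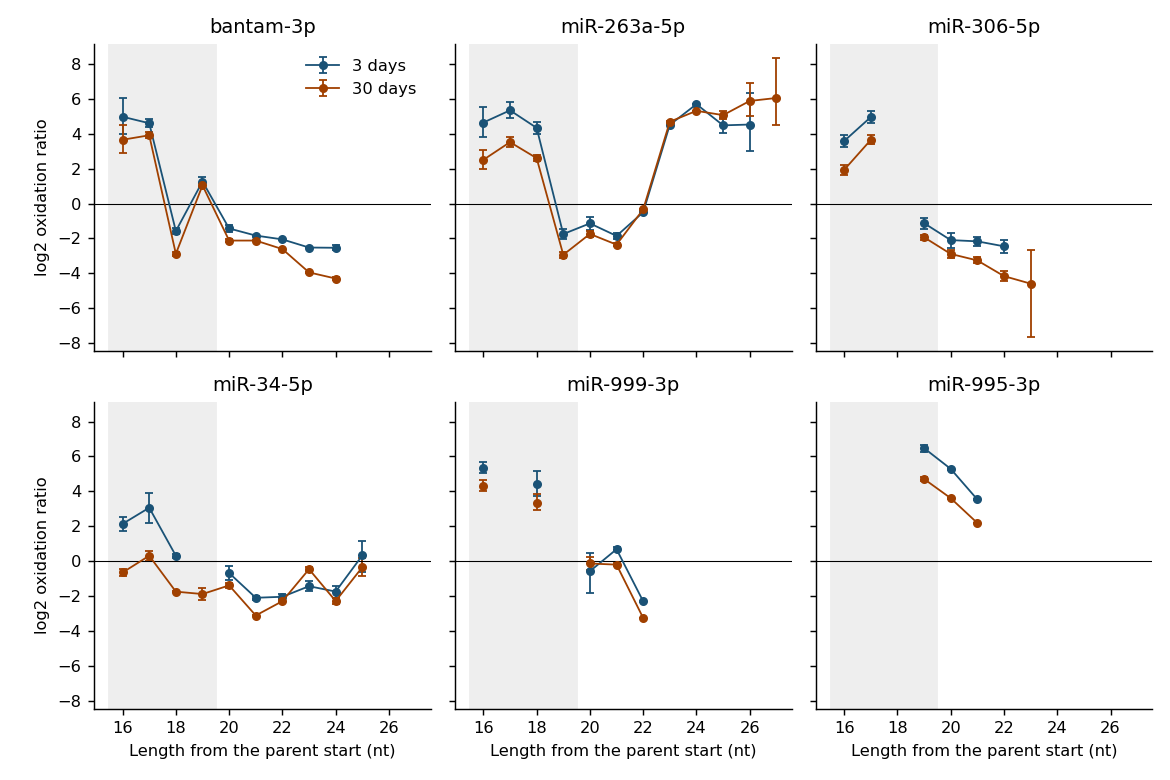
Log2 oxidation ratio with its 95% counting interval (y axis) for the prefixes of 6 miRNAs by length in nt (x axis), 3 days in blue and 30 days in brown, with member lengths shaded and lengths under 100 reads or ratios that are only limits left out. bantam-3p, miR-263a-5p and miR-306-5p change from above 3 to below −1 within 1 or 2 nt, while miR-995-3p declines from 19 to 21 nt and stays above 2.

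Over all parents the ratio mostly dropped between neighbouring lengths from 17 nt on, by a median of 1.24 from 17 to 18 nt and 1.46 from 18 to 19 nt at 3 days. Of 46 parents with a member prefix at both lengths, the 19-nt one had the lower ratio in 35 at 3 days, by 2-fold or more in 28, and in 34 at 30 days, by 2-fold or more in 26. It had the higher ratio in 11 at 3 days and 12 at 30 days, by 2-fold or more in 10 and 8. In miR-305-3p the 18-nt prefix had ratios of −0.25 and −3.37 at 3 and 30 days, and the 19-nt prefix 4.40 and 3.63. From 17 to 18 nt the longer prefix was lower in 26 of 34 parents at 3 days and 24 of 34 at 30 days. From 16 to 17 nt it was lower in 13 of 26 and in 10 of 26. These pairs were not recounted among members chosen on the unoxidized libraries.

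Among members with 50 reads in the libraries compared, the highest oxidation ratio at 3 days belonged to the 16-nt prefix of miR-124-3p, a miRNA of neurons, with 1 and 54 reads and a ratio of 8.70 (6.16 to 14.03). At 30 days it had 11 and 85 reads and 3.47 (2.56 to 4.52). The 19-nt prefix of miR-278-5p followed with 2 and 74 reads at 3 days and 22 and 473 reads at 30 days, or 8.16 (6.25 to 11.23) and 4.95. The 18-nt prefix of miR-306-3p had 26 and 161 reads at 3 days, or 5.58. At 30 days the highest ratio was that of a suffix, from base 4 to 22 of an arm without a name, at 4 and 30 reads at 3 days and 2 and 77 reads at 30 days, or 5.85 and 5.79 (3.88 to 8.86). The 19-nt prefix of the 21-nt miR-929-5p parent followed at 5.10, and the inner part from base 2 to 19 of miR-8-3p had 5 and 97 reads, or 4.80. These members, and the miR-263b-5p suffix described below, had under 100 reads in the unoxidized libraries and passed the minimum through the oxidized ones, so their high ratios follow in part from how members were chosen. The 19-nt prefixes of miR-995-3p and miR-2a-2-5p, also among the 5 highest at 3 days, passed on unoxidized reads alone. That of miR-2a-2-5p had more reads, at 9.99 and 481 RPM and 24.3 and 496 RPM, or 5.59 and 4.35. It did not stand apart from its parent, with differences of −0.58 and 0.24.

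The lowest ratios came from all 3 classes. At 3 days the lowest was a prefix, of 19 nt from miR-190-5p, at 154 and 1 reads or −4.32 (−9.63 to −1.82), and at 30 days it had 210 and 61 reads or −1.26. The 19-nt prefix of miR-210-3p, at 82 and 1 reads or −3.41 (−8.73 to −0.89), was also among the 5 lowest, beside suffixes of miR-14-3p (base 3 to 20, −4.30), miR-276a-3p and bantam-3p (base 7 to 23, −3.38). The suffix from base 8 to 23 of bantam-3p had 18.9 and 4.78 RPM at 3 days and 18.5 and 0.248 RPM at 30 days, or −1.98 and −6.22 (−8.51 to −4.66, on 3 oxidized reads). The suffix from base 5 to 22 of miR-276a-3p had 14.2 and 0.956 RPM and 12.6 and 0.496 RPM, or −3.89 (−6.94 to −2.02, on 2 oxidized reads) and −4.66. The 5 lowest at 30 days were suffixes or inner parts, and each had 3 reads or fewer in the oxidized library; beside that of bantam-3p they came from an arm without a name (base 3 to 21), miR-2b-3p (5 to 22), miR-1-3p (4 to 20) and miR-34-5p (5 to 21). An exception in the other direction was the suffix from base 6 to 23 of miR-263b-5p, at 5 and 9 reads and 5 and 116 reads, or 3.79 and 5.05; its parent too was high after oxidation, and the suffix differed from it by 0.66 and 1.27.

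With age and without oxidation the short forms were higher almost throughout. Of 334 members, 191 passed 2-fold upwards from 3 to 30 days and 3 downwards (median 1.17), where 28.9% of all sequences were higher and 4.84% lower, and 16.1% and 6.62% of the longer ones with a median of 0.10. Size factors from the median of ratios gave 107 higher and 17 lower, with a shift of −0.58 in the median of all sequences. The members lay 0.83 above that median under all 4 scalings, which is fixed by construction, since a scaling shifts all ratios alike. The medians were 1.05, 0.82, 1.05 and 1.35 from 16 to 19 nt, 0.75 at 20 nt, 0.22 at 21 nt and −0.16 at 22 nt. Compared with the parent, 173 members stood higher and 1 lower (median 1.03), against 20.8% and 4.83% of the longer sequences and a median of 0.26. All 3 classes shared this: the medians of the difference were 1.12 for prefixes, 0.70 for suffixes and 1.5 for inner parts.

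The 18-nt prefix of miR-34-5p, a miRNA known for its part in ageing of the fly brain, had 296 RPM at 3 days and 2695 RPM at 30 days without oxidation and 367 and 802 RPM with it. It was 9.10-fold higher with age without oxidation, or 3.19 on the log2 scale (3.14 to 3.23), and 1.13 on that scale with oxidation. Its 21-nt parent had 1116 and 2346 RPM without and 260 and 270 RPM with oxidation, or 1.07 and 0.06. The prefix went from 26.6% of the parent's reads at 3 days to 114.9% at 30 days without oxidation, and from 141% to 296% with it, so that it outnumbered the parent in 3 of the 4 libraries.

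The 11 other members of the miR-34-5p arm were far rarer, between 120 and 1340 summed reads. The 16-nt prefix had 8.38 and 45 RPM at 3 and 30 days without oxidation and 36.8 and 28.7 RPM with it. The inner part from base 3 to 18, which shares its last base with the 18-nt prefix, had 4 and 52 reads without oxidation. It had 18 and 156 reads with oxidation, and oxidation ratios of 5.12 and 2.10 at 3 and 30 days. It passed the minimum only through its oxidized reads, so these high ratios follow in part from how members were chosen. The 18-nt prefix had lower oxidation ratios, 0.31 and −1.75. Whether a shared last base matters for the ratio was not tested. The suffix from base 6 to 21, which ends like the parent, had 51 and 148 reads without and 0 and 9 reads with oxidation, and a ratio of −3.52 at 30 days.

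Several other prefixes were much higher with age than their parents. The 19-nt prefix of miR-957-3p had 178 and 1282 RPM at 3 and 30 days without oxidation and 151 and 382 RPM with it, or 2.85 and 1.34, while its 22-nt parent was lower with age; the differences were 3.97 and 3.70. The 19-nt prefix of miR-981-3p had 196 and 1042 RPM without and 81.8 and 316 RPM with oxidation, 3.21 and 4.06 above its parent. The 19-nt prefixes of miR-184-3p, at 710 and 2011 RPM without and 277 and 488 RPM with oxidation, and of miR-14-3p, at 245 and 1610 RPM and 297 and 274 RPM, were higher without oxidation by 1.5 and 2.71. With oxidation the miR-14-3p prefix differed by −0.12 with age.

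Among suffixes the miR-8-3p form from base 8 to 23 stood out by size. miR-8 is the fly member of the miR-200 family and acts in growth and in neurons. The suffix had 18.6 and 418 RPM at 3 and 30 days without oxidation and 25.8 and 24.9 RPM with it, or 4.49 (4.33 to 4.66) and −0.05. Its neighbour from base 7 to 23 had 13.8 and 231 RPM and 22 and 14.1 RPM, or 4.07 and −0.64. Both lack most of the seed, and both were highest in the unoxidized 30-day library. The other members among the 5 highest were inner parts with under 10 reads at 3 days, of miR-34-5p (base 2 to 18, 5.02), miR-11-3p (4 to 20, 4.31) and miR-987-5p (2 to 20, 4.28).

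Members lower with age were few. The 18-nt prefix of miR-998-5p had 59.2 and 11.2 RPM at 3 and 30 days without oxidation, or −2.40 (−2.63 to −2.17), and 28.7 and 17.3 RPM with it. The 18-nt prefix of miR-9c-5p, of the miR-9 family of neural tissue, had 17.4 and 7.26 RPM without and 119 and 34.9 RPM with oxidation, or −1.26 and −1.77. Its prefixes of 19 and 16 nt, at −0.83 and −0.78, and a 19-nt prefix of an arm without a name, at −0.87, were the next lowest among members with 50 reads.

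With oxidation the ages differed less and in both directions. Of 312 members, 79 passed 2-fold upwards at 30 days and 59 downwards around a median of 0.05, beside 15% higher and 30.7% lower of all sequences and 10.5% and 36.0% of the longer ones. TMM gave 129 higher and 25 lower with a shift of 0.66 in the median of all sequences, and totals without the sequence most abundant in any library gave 101 and 43 with a shift of 0.32. The medians went from −0.51 at 16 nt through −0.16 and 0.17 to 0.47 at 19 nt. Compared with the parent, 148 of 320 members stood higher and 18 lower (median 0.80), against 32.8% and 8.54% of the longer sequences and a median of 0.54. The direction depends on the parent: with the longest holder the median was −0.25, with 7 higher and 6 lower of 33. The prefixes of 16 and 17 nt stood 0.18 and 0.21 above their parents and those of 18 and 19 nt 1.07 and 1.37. Of the 168 members higher than their parent with age without oxidation, 97 (57.7%) were so with it, or 65.5% of the 148. For longer sequences these shares were 63.6% and 40.5%. The rank correlation was 0.29 across 320 members and 0.51 across 514 longer sequences.

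The oxidation ratio of the members was mostly lower at 30 than at 3 days. The change could be computed for 298 members with reads in all 4 libraries, and 156 passed 2-fold downwards and 16 upwards (median −1.09); over all sequences 44.3% were lower and 4.80% higher, and over the longer ones 40.9% and 4.56%. The call depends on the scaling. Median-of-ratios size factors gave 97 lower and 39 higher, and TMM gave 61 lower and 60 higher with a median of 0.06. Relative to the median of all sequences the members lay 0.23 lower under all 4 scalings, which is fixed by construction and is no check of the call. By length the medians were −1.63, −1.26, −0.87 and −0.82 from 16 to 19 nt. Prefixes ending in C had the lowest median of the 4 last bases, at −1.97, with 41 of 50 lower, against −1.0 for A, −0.90 for G and −0.85 for T; this grouping was made after earlier results of these data were known.

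The share of short reads within a miRNA arm sets each miRNA against itself. In 55 arms with at least 1000 reads in each library, the median share of 16 to 19 nt reads was 0.601% and 1.68% without and with oxidation at 3 days and 1.24% and 3.32% at 30 days. The share was higher after oxidation in 42 arms at 3 days and 40 at 30 days, with median folds of 2.14 and 2.0. It was higher at 30 days in 50 arms without and in 50 with oxidation, with median folds of 2.04 and 1.77.

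The spread between arms was wide. In miR-34-5p short reads made up 14.2% of the unoxidized and 45.9% of the oxidized reads of the 3-day flies, and 47.5% and 63.3% of those of the 30-day flies. miR-276-5p had 26.5%, 44.9%, 55.0% and 61.8% in the same order. miR-184-3p was near equal between treatments, with 4.06% and 5.29% at 3 days and 22.3% and 18.6% at 30 days. miR-957-3p had 0.770%, 2.94%, 7.17% and 17.1%, and miR-981-3p had 3.27%, 9.51%, 18.5% and 39.2%. let-7-5p, a regulator of developmental timing, had 5.96%, 12.7%, 10.5% and 31.4%.

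bantam-3p, miR-999-3p and miR-9c-5p had under 1% short reads before oxidation at both ages. bantam-3p had 0.640% and 0.881% without and 3.00% and 5.18% with oxidation at 3 and 30 days. miR-999-3p had 0.135% and 0.274% without and 2.95% and 4.95% with it. miR-9c-5p had 0.975% and 0.823% without and 18.7% and 21.5% with it.

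The arms that were lower after oxidation at both ages included miR-263a-5p, with 2.16% and 1.92% short reads without and 0.154% and 0.106% with oxidation at 3 and 30 days. Others were miR-998-5p, with 22.8% and 15% without and 2.62% and 7.30% with it, and miR-927-5p, with 0.340% and 0.968% without and 0.133% and 0.275% with it. In miR-263a-5p and miR-998-5p the long parent was high in the oxidized libraries, with parent ratios of 5.70 and 6.18 at 3 days. Some of their prefixes were high too, though below the parent. At 3 days those of 16, 17 and 18 nt of miR-263a-5p had 4.65, 5.34 and 4.34, and the 19-nt one of miR-998-5p 4.34. The 19-nt prefix of miR-263a-5p and the 18-nt prefix of miR-998-5p were lower, at −1.75 and −1.05. For miR-308-3p and miR-1-3p few longer sequences are in the tables used here, so their members cannot be weighed against the full arm; miR-308-3p had 94.8% to 99.9% short reads for that reason.

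**Figure D5:**
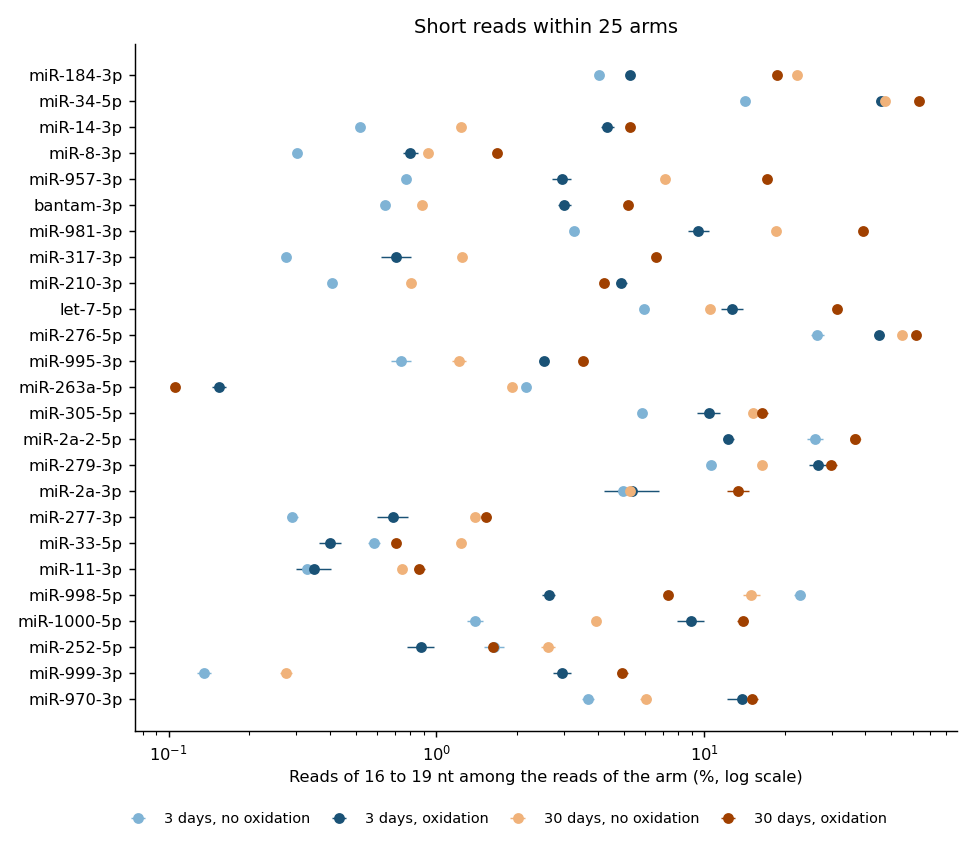
Percent of an arm's reads that are 16 to 19 nt long (x axis, log scale) in each library with 95% counting intervals, for the 25 arms with most member reads among those with 1000 reads in each library. In most of these arms the unoxidized 3-day share is the lowest and the oxidized 30-day share the highest, and miR-263a-5p and miR-998-5p are lower with oxidation at both ages.

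A list of 10 arms trimmed at the 3′ end was recalled from published work on Nibbler and is certain only for miR-34-5p. Of these arms 9 had members, 57 in all and 29 of them prefixes, with 20.8% of member reads. With age and no oxidation 38 of the 57 passed 2-fold upwards and 0 downwards, around a median of 1.43 beside 1.17 and 191 of 334 (57.2%) for all members; compared with the parent it was 34 and 0, with a median of 1.30, beside 51.8% of all members. Both counts are near those of the members as a whole. After oxidation 27 of 54 stood higher and 11 lower at 3 days (median 1.10), and 22 and 21 of 57 at 30 days, with a median of 0.16. The difference from the parent had medians of 0.46 and 0.29 there, below the 0.94 and 1.01 of all members. Of the 57 members, 12 were of miR-263a-5p, whose parent was high after oxidation. The list was not compared with members of the same classes or lengths, nor recounted among members chosen on the unoxidized libraries.

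The nervous-system arms had 19 members, 17 of them prefixes. Compared with the parent, 15 of 17 with a value were higher and 1 lower after oxidation at 3 days and 17 of 19 and 0 at 30 days. The medians were 4.27 and 2.68, where 48.2% and 50.3% of all members were higher. Among all 201 prefixes with both values, 116 were higher than the parent at 3 days and 121 at 30 days. Since shorter prefixes stood further above their parents, length matters too, and the list was not compared with prefixes of the same lengths. A member could also pass the minimum of reads through an oxidized library where it was high. The list was not recounted among members chosen on the unoxidized libraries, so how far its counts follow from that choice was not tested. The ratios of the 19 members themselves were split at 30 days, with 6 higher and 7 lower after oxidation, against 11 and 3 of 18 at 3 days. With age after oxidation 2 of 17 stood higher and 4 lower (median −0.54). With age without oxidation 11 of 19 were higher than the parent and 0 lower, with a median of 1.14, near the 51.8% of all members.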

How the data were processed

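Small RNAs of 4 libraries of fly heads (3 or 30 days, with or without oxidation and β-elimination) were sequenced on an Illumina HiSeq2000 with the TruSeq small RNA kit, per the labels' protocols. The authors deposited 1 table per library of sequences and their raw read counts; CASAVA 1.8.2, Bowtie and the dm3 build are named, without roles, per the submitters' processing notes. Each sequence was counted once per file, and counts were divided by the summed reads of the file and scaled to 1000000 (RPM). Members and lists were chosen with earlier results of these data known. Each group has 1 library, so there is no replicate and no p-value. Log2 ratios carry 95% intervals that cover counting error only, since reads without molecular identifiers are not independent molecules. A count of 0 was set to 3 counts, and limits that fixed no direction, and members with 3 counts or fewer in both libraries, were left out. Members were marked for naming by a rule: the 20 of highest mean level, the 5 highest and lowest of each ratio with 50 reads in the libraries compared, the same for the difference from the parent after oxidation, and the 3 sequences on each side of the minimum of 100 reads; not all of those for age after oxidation, the age change and the difference are described, and others were chosen after their values were seen, as members of arms or lengths described. The programs were Python 3.11.15, pandas 2.3.3, numpy 2.4.6, scipy 1.17.1 and matplotlib 3.10.9, with R 4.3.3 and edgeR 4.0.16 for TMM factors only. The ratio step was tested on simulated data.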

Additional observations from a re-analysis of the deposited data

Results flagged for a closer look

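The share of reads in members changed in opposite directions with oxidation at the 2 ages, by a fold of 1.78 at 3 days and 0.682 at 30 days. The difference was not tested, since each value compares 2 single libraries. A share depends on what else fills the library, and the miR-263a-5p arm went from 15345 to 504995 RPM with oxidation at 30 days. The short share within an arm was higher after oxidation in 42 of 55 arms at 3 days and in 40 at 30 days. The inner part from base 4 to 20 of miR-11-3p had a log2 oxidation ratio of 1.95 at 3 days and −1.39 at 30 days, and the 3-day value rests on 6 and 3 reads, with a counting interval of −0.68 to 4.17. The suffix from base 6 to 21 of the less abundant miR-210-3p parent had −1.96 at 3 days, on 30 and 1 reads with an interval of −7.31 to 0.63, and 1.68 at 30 days. Another member past 2-fold in opposite directions, the 18-nt prefix of miR-1000-5p, had 1.54 and −1.04, on 180 and 68 reads at 3 days and 703 and 238 reads at 30 days. None of these differences was tested.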

How the results depend on the processing

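No paired analysis was possible because the groups share only replicate number 1, given in accession order, and no replicate could be left out with 1 library a group. Of the values of single named members under the alternatives run, 356 moved, up or down, by no more than the longer side of their counting interval. For a difference from the parent the limit was 0.1. Another 262 moved further, and 0 of the values past 2-fold changed sign. Of 188 summary values, 114 stayed close, 69 moved and 5 reversed; the causes were not tested beyond what each setting changes by construction. With median-of-ratios size factors the median ratios were 0.88 after oxidation at 30 days, 0.59 with age without oxidation (32.0% higher, 5.09% lower), 0.22 with age after oxidation and −0.33 for the age change (13.1%, 32.6%). With TMM factors they were −0.48 after oxidation at 3 days, a reversal (39.9% lower), 0.70 with age without oxidation (37.1%, 3.89%), 0.73 after oxidation (40.8%, 7.91%) and 0.059 for the change, a reversal (20.1%, 20.5%). Without the most abundant sequence they were 1.0, 0.51, 1.37, 0.36 and −0.97 for oxidation at 3 and 30 days, age without and with oxidation, and the change. With a minimum of 50 reads the 3-day oxidation median was 0.78 and 1.48% were lower with age. With 500 reads the oxidation medians were 0.79 and −0.096, a reversal at 30 days, and the age median without oxidation was 1.31 (1.44% lower). There 1.45% had a higher change, the differences from the parent were 1.04 after oxidation at 3 days and 0.94 with age after oxidation, and 0.719% were lower than the parent with age. Suffixes were then 12.9% and inner parts 7.19%, and the shares of reads were 0.696%, 1.21%, 2.22% and 1.45%. With members chosen on unoxidized libraries the oxidation medians were 0.058 and −1.04, a reversal at 30 days (19% higher), and the differences from the parent were 0.74, 0.59 and, with age after oxidation, 1.05. Counting only ratios whose interval passes 2-fold, 9.35% were lower after oxidation at 3 days, 35.9% higher and 0.299% lower with age without oxidation, 12.2% and 9.94% with it, and 0.671% and 29.5% for the change. Taking all reads of 16 to 19 nt the shares were 0.784%, 1.40%, 2.38% and 1.65%; adding repeated rows gave 0.821%, 1.43%, 2.43% and 1.72%; leaving out miR-184-3p, chosen after seeing the data, gave 0.591%, 1.19%, 1.79% and 1.30%. With the longest holder as parent, suffixes were 5.99% and inner parts 46.7%, and the differences were 1.92 (33 members) and 0.18 (84) after oxidation at 3 and 30 days, 0.45 (71) with age without oxidation (12.7% lower) and −0.25 (33) with it, a reversal (21.2%, 18.2%). Fewer members have a value there because the longest holders have few reads. The 3-day oxidized library is the shallowest and limits every ratio that uses it.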
